A study of Mus musculus with 16 samples.

Results

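Blk, Lyn, Syk, Blnk, Plcg2, Bank1 and Pik3ap1, 7 genes whose proteins carry the signal of the B cell receptor, were examined for DNA methylation in B and T cells of the mouse. They were chosen by name, 7 of 21755 protein-coding genes on chromosomes 1 to 19 and X, with positions from GENCODE vM21 on mm10. The choice was made with earlier results of these data known. Whole genome bisulphite sequencing (WGBS) had been performed on 8 libraries of resting CD43- B cells and 8 libraries of naive CD4+ CD62L+ T cells, both sorted with magnetic beads from spleens of C57BL/6J mice aged 6 to 8 weeks. Males and females gave 4 libraries each per cell type, and for each sex 2 were standard bisulphite (BS) libraries, which read both 5-methylcytosine and 5-hydroxymethylcytosine as methylated, and 2 were oxidative bisulphite (oxBS) libraries, which read only 5-methylcytosine as methylated. No mouse is named for any library, whether cells of several mice were combined is not given, and a BS and an oxBS library may hold DNA split from one sample, so that p-values measure the spread between libraries, part of which may be technical.

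When antigen binds the B cell receptor, Src-family kinases such as Lyn and Blk phosphorylate the tails of CD79A and CD79B, and Syk is recruited and activated there. Syk phosphorylates the adaptor Blnk, which brings phospholipase C gamma 2 (Plcg2) to its activator, and Plcg2 releases calcium and activates protein kinase C. Bank1 and Pik3ap1 (also called BCAP) are scaffolds that link the receptor to calcium release and to phosphoinositide 3-kinase. T cells use a parallel set of proteins, with Lck, Zap70, Lcp2 and Plcg1 in the corresponding places. DNA methylation at CpGs is usually high along gene bodies, low at CpG-rich transcription start sites (TSSs) and low at active regulatory sites.

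The level of a region in a library was the percentage of its CpG calls that were methylated, and a difference was the mean of the B cell levels minus the mean of the T cell levels, in percentage points. All 8 libraries of each cell type entered the TSS windows and bodies of the 7 genes, whereas a tile used the libraries with at least 20 calls in it, at least 5 of each cell type, and 615 of 945 tested tiles had all 16. Regions were called different at a Benjamini-Hochberg adjusted p under 0.05 over all regions of that kind in the genome, together with a difference of at least 10 points for TSS windows (1 kb to each side) and gene bodies, or 20 points for 500 bp tiles. A stretch or group of called tiles could have uncalled or untested tiles in between. Its level was the mean over the called tiles alone and not that of the whole span. B cell libraries held between 123693203 and 171130063 calls and T cell libraries between 154857425 and 170135949, or between 5.78 and 7.99 calls per CpG. The TSS windows of Cd79a, Cd79b, Ms4a1 and Pax5 were lower in B cells, that of Ebf1 was not called, and those of 6 of 8 T cell marker genes were higher in B cells. Of 4 myeloid, 2 NK and 2 erythroid marker genes, 1 TSS window was called, that of Lyz2, which differed by -18.4 points (46.6% in B cells against 65.0% in T cells), and its part in the results below was not tested. Among the B cell libraries, numbers 1, 2, 9 and 10 stood above numbers 3, 4, 11 and 12 in the bodies of all 7 genes, by between 2.05 points (Plcg2) and 6.65 points (Lyn), although each set of 4 held both sexes and both assays. These sets were formed after the values were seen and match no batch in the labels, so their separation at the 7 genes is not a test. Over all genes with enough calls the first set stood wholly above the second in 9.74% of bodies and wholly below it in 0.598%, with a median difference of 0.421 points. In pooled cells, a partial level from some of the cells and from some of the alleles cannot be told apart.

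Methylation in B cells was lower than in T cells at the TSS windows of Blnk, Blk and Bank1, whereas Lyn, Syk, Plcg2 and Pik3ap1 had CpG-rich windows with 11% methylation or less in every library. Over the 7 genes 116 of 945 tested tiles were lower in B cells (12.3%, against 1.11% of tiles in the genome) and 13 were higher (1.38%, against 1.96%). Of the lower tiles, 113 lay upstream of the midpoint of the gene, while 11 of the 13 tiles that were higher in B cells lay beyond it. For each gene the 3 tiles with the largest difference in each direction were named by rule, and other tiles are mentioned as examples chosen after their values were seen.

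Blnk (chr19:40928927-40994535, minus strand), the adaptor that Syk phosphorylates, showed the largest differences of the 7 genes in the TSS window and the gene body. Its largest tile difference, -88.2 points, was close to that of Blk (-88.0 points). Among tiles higher in B cells, Syk reached 72.8 points and Blnk 24.7 points. The TSS window of Blnk, with 33 CpGs, had between 8.48% and 18.7% methylation in B cells, with a median of 11.6%. T cells ranged from 48.0% to 65.9% with a median of 57.3%. The cell types did not overlap, and the means were 12.5% ± 3.69 and 58.0% ± 5.25 (SD, n = 8 each). The difference of -45.5 points passed the test, with an adjusted p of 3.11e-07 in the quasi-binomial fit and a two-sided exact permutation p of 1.55e-04, the smallest that 8 against 8 libraries allow. Over 32 alternatives, which include other window widths, it ranged from -55.1 to -23.8 points and was called in each. Among all TSS windows tested, 1.26% were called lower in B cells and 1.67% higher.

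Blnk also had the longest stretch of differing tiles, 14 called tiles over 7.50 kb (chr19:40989501-40997000) that ran from position -2465 to 5034 bp relative to the TSS, with a mean level of 22.3% in B cells against 86.4% in T cells. Within that stretch the tile from -1965 to -1466 bp was at 0.818% in B cells against 76.8% in T cells. The largest difference, -88.2 points, was in the tile 1035 to 1534 bp downstream of the TSS (7.45% against 95.6%, 7 libraries with enough calls in each cell type). The adjoining tile from 535 to 1034 bp, in an intron, had between 3.03% and 11.8% methylation in B cells, against 85.2% to 94.4% in T cells (-82.6 points). A stretch of that tile is shown because nearly every CpG in it, in capitals, was unmethylated in B cells and methylated in T cells.
Blnk intron near the TSS (mm10 chr19:40993619-40993918, plus strand): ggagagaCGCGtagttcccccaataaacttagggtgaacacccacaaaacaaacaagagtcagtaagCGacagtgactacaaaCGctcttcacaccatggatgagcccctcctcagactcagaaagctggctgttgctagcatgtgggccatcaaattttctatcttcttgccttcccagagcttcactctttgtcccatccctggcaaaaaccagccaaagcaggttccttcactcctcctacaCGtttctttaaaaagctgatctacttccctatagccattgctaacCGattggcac
Over its 6 CpGs, 9 of 361 B cell calls were methylated (2.49%, exact 95% interval 1.15 to 4.68) and 417 of 471 T cell calls (88.5%, interval 85.3 to 91.3). These intervals, like others below, cover counting error only, and calls from CpGs on one read are not independent.

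A second group of Blnk tiles lay deeper in the gene, away from the start site. The tile 16035 to 16534 bp downstream of the TSS had between 0% and 18.8% methylation in B cells, with a median of 9.56%, whereas T cells ranged from 87.5% to 96.6% with a median of 93.3%, a difference of -84.0 points without overlap. Further tiles at 17035, 19035 and 23535 bp were lower in B cells by 44.7, 61.5 and 72.5 points. Of 103 tested Blnk tiles, 24 were lower in B cells and 2 higher, and the 2 higher tiles lay 58035 and 62035 bp from the TSS, in the region of the 3' end. With the calls of neighbouring library numbers added, which sums a BS and an oxBS library that may share DNA, the tile at 62035 bp was not called (adjusted p = 0.0982), and the tile at 58035 bp, where the cell types overlapped, was not called without B cell libraries 3, 4, 11 and 12 (0.0515) or 1, 2, 9 and 10 (0.0996). The whole gene body, from 1 kb past the TSS to the gene end, was at 78.1% ± 2.43 in B cells against 90.2% ± 0.464 in T cells (SD, n = 8 each).

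Blnk was the 1 gene of 7 whose body was called, at -12.1 points with an adjusted p of 4.26e-07 and an exact permutation p of 1.55e-04. Across the genome 0.636% of gene bodies were called lower in B cells and 2.61% higher. Without B cell libraries 3, 4, 11 and 12 the difference was -9.93 points, just under the limit of 10 points.

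Blk (chr14:63372836-63417037, minus strand), a Src-family kinase of B cells, had a TSS window of 19 CpGs with between 15.3% and 30.1% methylation in B cells, with a median of 22.8%, whereas T cells ranged from 46.6% to 62.6% with a median of 53.5%. The means were 22.9% ± 5.16 and 55.0% ± 5.35 (SD, n = 8 each), with no overlap. The difference of -32.1 points passed the test (adjusted p = 2.21e-05, exact permutation p = 1.55e-04). It was between -29.6 and -32.3 points in the oxBS, male or female libraries alone, where it was not called. Within 500 bp of the TSS the difference was smaller, -9.52 points (adjusted p = 0.00134). It fell short of 10 points there and was not called.

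The largest difference at Blk lay upstream of the gene. The tile from -2963 to -2464 bp (chr14:63419501-63420000) was at 3.23% to 7.69% in the 6 B cell libraries with enough calls and at 89.3% to 98.0% in the 6 such T cell libraries, a difference of -88.0 points (adjusted p = 9.17e-06, exact permutation p = 0.00216). Its CpGs are shown because 3 of them lie together and were without a methylated call in any B cell library.
Blk upstream region (mm10 chr14:63419559-63419858, plus strand): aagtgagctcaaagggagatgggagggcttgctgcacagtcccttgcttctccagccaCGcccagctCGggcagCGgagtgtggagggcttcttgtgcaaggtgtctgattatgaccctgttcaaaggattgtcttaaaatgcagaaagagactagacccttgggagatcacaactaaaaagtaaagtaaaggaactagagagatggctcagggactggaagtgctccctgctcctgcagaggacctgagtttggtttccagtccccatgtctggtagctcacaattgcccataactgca
At these 3 CpGs 0 of 181 B cell calls were methylated, which allows a level of up to 1.66% (a limit of 3 calls, where the exact 95% interval reaches 2.02%), against 195 of 202 T cell calls (96.5%, interval 93.0 to 98.6). The remaining CpG of the tile, outside the stretch shown, was methylated in 12 of 28 B cell calls (42.9%) and 24 of 32 T cell calls (75.0%). Downstream, a stretch of 4 called tiles between 537 and 3036 bp was at 45.3% in B cells against 89.4% in T cells. Another stretch of 4 tiles, from 4537 to 6536 bp, was at 35.7% and 67.7%. The tile 1037 to 1536 bp into the gene was at 14.5% and 91.1% (-76.6 points, 5 B cell and 6 T cell libraries). One further tile, 38537 bp from the TSS and overlapping a coding exon, was lower in B cells (29.1% against 73.6%). The single Blk tile that was higher in B cells lay across the end of the gene, at 36.0% in B cells against 12.2% in T cells. It overlaps an untranslated exon, but all 5 of its CpGs lie past the annotated gene end. The number of lower tiles in Blk was 14 of 80 tested, and 9 without B cell library 4.

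Bank1 (chr3:136053363-136326066, minus strand), a scaffold with ankyrin repeats, spans 273 kb and was the longest of the 7 genes. Its TSS window held 14 CpGs and had between 19.6% and 38.8% methylation in B cells, with a median of 23.3%, whereas T cells ranged from 36.1% to 49.1% with a median of 43.2%. The highest B cell library, number 1, lay above the lowest T cell library, so the cell types overlapped. The difference of -17.5 points was called (adjusted p = 4.31e-04, exact permutation p = 3.11e-04). It was not called in the BS libraries alone, the oxBS libraries alone or the libraries of either sex alone, where it was between -15.2 and -19.8 points. A stretch of 4 called tiles from 66 to 3565 bp downstream of the TSS was at 43.4% in B cells against 81.2% in T cells.

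The Bank1 tile with the largest difference lay 86566 to 87065 bp into the gene, in an intron. It was at a median of 13.8% in B cells against 96.3% in T cells (-78.7 points, adjusted p = 1.18e-05). The B cell libraries ranged from 0% to 47.8% and the T cell libraries from 80% to 100%, without overlap, and the 47.8% of B cell library 10 stood apart from the other B cell libraries. Its sequence is shown as an example of a differing site far from any start site of a coding transcript.
Bank1 intron (mm10 chr3:136239100-136239399, plus strand): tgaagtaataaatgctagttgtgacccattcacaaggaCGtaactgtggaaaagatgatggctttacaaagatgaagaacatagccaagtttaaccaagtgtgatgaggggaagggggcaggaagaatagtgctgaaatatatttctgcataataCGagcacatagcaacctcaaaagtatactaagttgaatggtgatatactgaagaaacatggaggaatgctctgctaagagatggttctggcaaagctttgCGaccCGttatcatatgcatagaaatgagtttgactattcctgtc
Of these 4 CpGs, the first 2 were at 2.08% and 4.76% in pooled B cell calls and the last 2 at 32.2% and 24.6%, while all 4 were between 92.5% and 100% in T cells. Another called tile, 78066 bp from the TSS (30.4% against 63.6%), overlaps a coding exon and holds the start of the retained-intron transcript Bank1-204. The Bank1 tile that was higher in B cells (61.2% against 32.2%), 225566 bp from the TSS, overlaps a coding exon and the antisense gene Gm31243, whose calls are therefore the same calls. It was not called without B cell libraries 3, 4, 11 and 12 (adjusted p = 0.0558) or 1, 2, 9 and 10 (0.285).

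Pik3ap1 (chr19:41272377-41385102, minus strand), the scaffold for phosphoinositide 3-kinase, had a TSS window of 65 CpGs at 1.08% to 8.89% in B cells and 6.73% to 11% in T cells. The difference of -4.82 points had an adjusted p of 0.0192 (exact permutation p = 0.00109) and fell short of 10 points, so the window was not called. With windows of 2 kb to each side the difference was -10.1 points and was called. That larger window reaches a stretch of 4 called tiles from 602 to 3101 bp downstream, at 31.1% in B cells against 75.9% in T cells.

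Inside Pik3ap1, 26 of 182 tested tiles were lower in B cells, spread from 602 bp to 100102 bp from the TSS. The tile at 12102 bp was at 0% in every B cell library with enough calls, against a mean of 47.6% in T cells. The tile at 20102 bp was at 15.7% and 90.8%, and the tile at 53602 bp at 3.23% to 15.4% in B cells against 64.6% to 84.2% in T cells (-67.7 points, adjusted p = 1.22e-07). Near the 3' end, 3 tiles between 101602 and 107101 bp went the opposite way. The tile at 106602 bp was at 69.6% to 94.4% in B cells and 16.7% to 46.3% in T cells, a difference of 50.3 points.

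**Figure D1:**
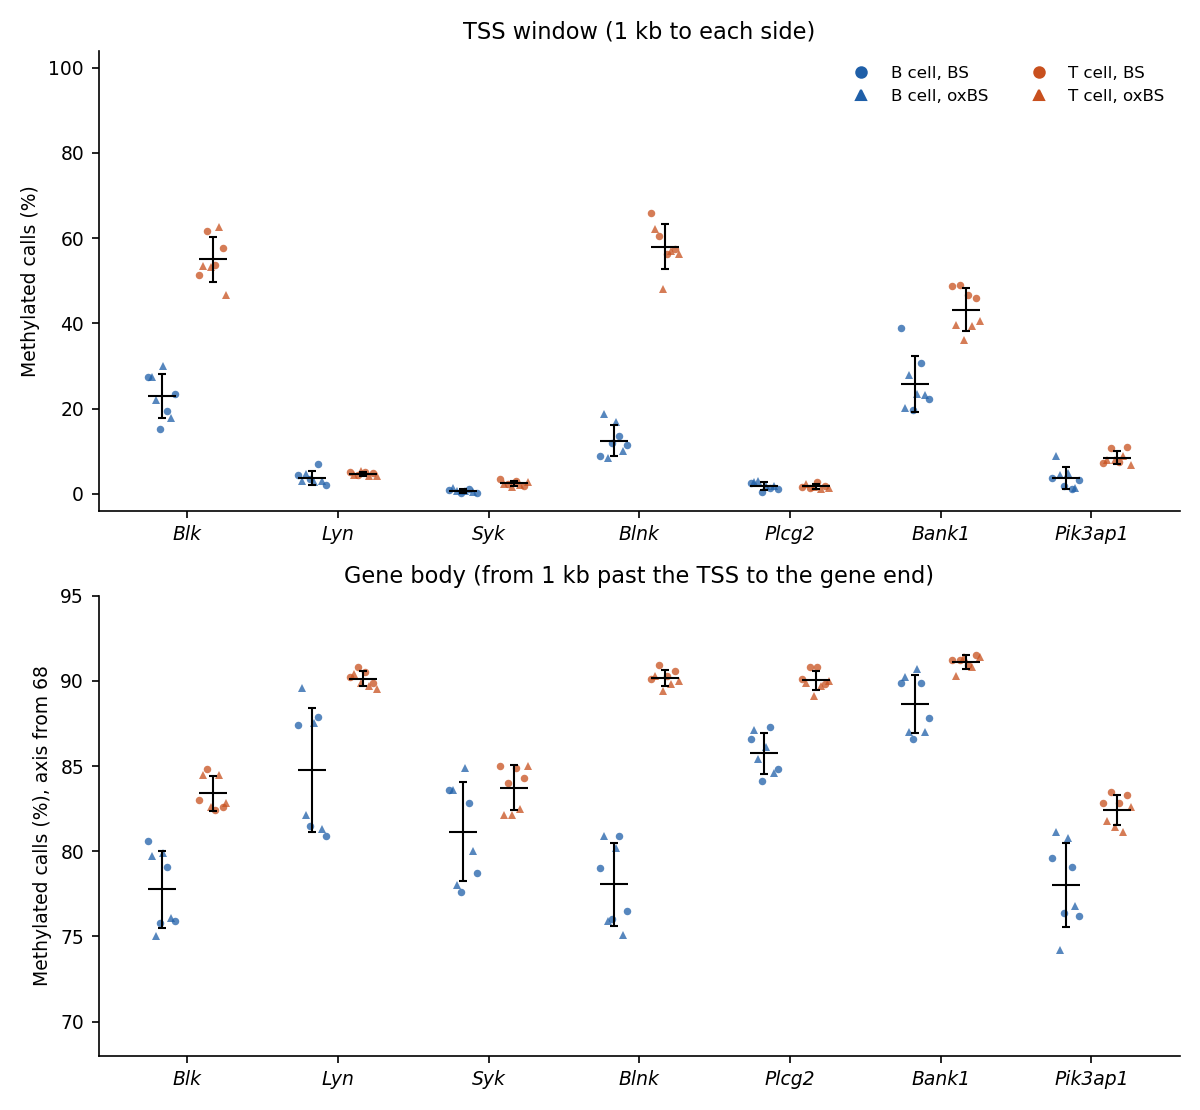
Methylation level (percentage of CpG calls methylated, y axis) of each library in the TSS window (top) and gene body (bottom, axis from 68%) of the 7 genes, with B cells in blue, T cells in orange, BS libraries as circles and oxBS libraries as triangles, and black marks for the mean and SD of 8 libraries. The TSS windows of Blnk, Blk and Bank1 differ between the cell types by 45.5, 32.1 and 17.5 points, and in each gene body the B cell libraries fall into an upper and a lower set of 4.

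Lyn (chr4:3678115-3813122, plus strand), a Src-family kinase of B cells and other blood cells, had a CpG-rich TSS window of 97 CpGs that was at 1.95% to 7.03% in B cells and 4.12% to 5.23% in T cells. The difference of -0.932 points was not called (adjusted p = 0.236, exact permutation p = 0.131). Called tiles began 886 bp downstream of the TSS. The tile 1386 to 1885 bp downstream of the TSS was at 0% to 31.6% in B cells (median 21.3%) and 67.1% to 86.4% in T cells (median 75.1%), a difference of -57.2 points (adjusted p = 2.07e-05). The tile overlaps the lincRNA gene Gm26857 on the other strand. In all, 8 of 106 Lyn tiles were lower in B cells and 1 was higher, at 91.2% against 65.0%, 119386 bp from the TSS. The number of lower tiles fell to 5 without B cell library 4.

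Syk (chr13:52583173-52648792, plus strand), the kinase that carries the signal on from the receptor, also had an unmethylated TSS window of 93 CpGs, at 0.120% to 1.27% in B cells and 1.65% to 3.55% in T cells. The libraries did not overlap, but the difference of -1.81 points (adjusted p = 0.00168, exact permutation p = 1.55e-04) was far under 10 points. Within the gene Syk differed in both directions, with 7 tiles lower and 5 higher in B cells of 99 tested. Of the 7 lower tiles, 5 lay past the start of the coding transcript Syk-201, 13680 bp from the first start site.

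A group of 3 such tiles, between 15328 and 17327 bp, averaged 29.5% in B cells against 67.6% in T cells. Of these, the tile at 16328 bp was not called without T cell library 15 (adjusted p = 0.0516), without B cell libraries 3, 4, 11 and 12 (0.133) or with neighbouring library numbers added (0.0800). The tile at 16828 bp was at 0% to 20% in B cells and 42.1% to 63.9% in T cells, a difference of -46.0 points (adjusted p = 1.17e-05). In the BS, oxBS, male or female libraries alone it was between -45.3 and -46.7 points and was not called (adjusted p between 0.0506 and 0.0727). Farther on, the tile 51828 to 52327 bp from the TSS was at 83.3% to 100% in B cells (median 94.0%) and 13.9% to 26.5% in T cells (median 21.5%). This difference of 72.8 points (adjusted p = 2.62e-07) was the largest in that direction in the 7 genes. Stretches of both tiles are shown, the first lower and the second higher in B cells.
Syk intron, lower in B cells (mm10 chr13:52600010-52600309, plus strand): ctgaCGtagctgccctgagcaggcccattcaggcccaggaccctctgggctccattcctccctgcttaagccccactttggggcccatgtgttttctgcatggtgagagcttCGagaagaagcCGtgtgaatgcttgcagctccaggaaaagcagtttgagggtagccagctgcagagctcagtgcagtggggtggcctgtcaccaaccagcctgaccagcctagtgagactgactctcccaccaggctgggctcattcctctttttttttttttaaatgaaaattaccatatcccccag
Syk intron, higher in B cells (mm10 chr13:52635013-52635312, plus strand): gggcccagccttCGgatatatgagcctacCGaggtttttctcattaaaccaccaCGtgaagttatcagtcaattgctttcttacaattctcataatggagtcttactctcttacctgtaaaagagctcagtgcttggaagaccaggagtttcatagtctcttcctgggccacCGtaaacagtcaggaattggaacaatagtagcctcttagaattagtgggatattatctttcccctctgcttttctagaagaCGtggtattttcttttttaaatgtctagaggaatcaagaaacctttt
In the second sequence CpGs 1, 2, 3 and 5 were at 88.9% to 97.6% in B cells and 5.36% to 13.2% in T cells, whereas CpG 4 was methylated in both (94.0% and 95.8%). In the first sequence CpGs 2 and 3 had no methylated call in B cells (0 of 70 and 0 of 68) and were at 26.6% and 22.5% in T cells. The other higher tiles of Syk lay at 29328, 29828, 33828 and 44828 bp, and the count of higher tiles fell to 3 without B cell library 3 or without library 9. The tile at 29328 bp was not called with neighbouring library numbers added (adjusted p = 0.0802). The tile at 33828 bp was nearly unmethylated in T cells (4.22%) and at 33.2% in B cells.

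Plcg2 (chr8:117498291-117635142, plus strand), the phospholipase that Blnk brings into the complex, had a TSS window of 85 CpGs at 0.451% to 3.01% in B cells and 1.16% to 2.68% in T cells, with no called difference (0.137 points, adjusted p = 0.962, exact permutation p = 0.709). It had 26 tiles lower in B cells and 0 higher of 249 tested. A stretch of 7 called tiles, 27210 to 30709 bp downstream of the TSS (chr8:117525501-117529000), was at 21.1% in B cells against 67.9% in T cells. Within it, the tile at 29210 bp had at most 8.75% methylation in a B cell library and at least 48.6% in a T cell library (-55.6 points, adjusted p = 1.35e-07). A stretch of it is shown because its CpGs were nearly unmethylated in B cells and partly methylated in T cells.
Plcg2 intron (mm10 chr8:117527656-117527955, plus strand): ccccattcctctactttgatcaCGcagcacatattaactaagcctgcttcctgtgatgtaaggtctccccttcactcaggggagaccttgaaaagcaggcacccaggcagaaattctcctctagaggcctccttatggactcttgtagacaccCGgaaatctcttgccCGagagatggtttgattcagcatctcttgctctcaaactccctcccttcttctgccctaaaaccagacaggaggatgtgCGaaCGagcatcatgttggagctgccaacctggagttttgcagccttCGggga
Over its 6 CpGs, 3 of 413 B cell calls (0.726%, interval 0.15 to 2.11) and 302 of 496 T cell calls (60.9%, interval 56.4 to 65.2) were methylated. A second group lay at 63710 to 65209 bp, with 3 called tiles at 45.6% in B cells against 88.8% in T cells. Beyond 65209 bp no Plcg2 tile was called. The count of higher tiles in Plcg2 was 1 when B cell library 10 or 11, or T cell library 7, 8 or 13, was left out.

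**Figure D2:**
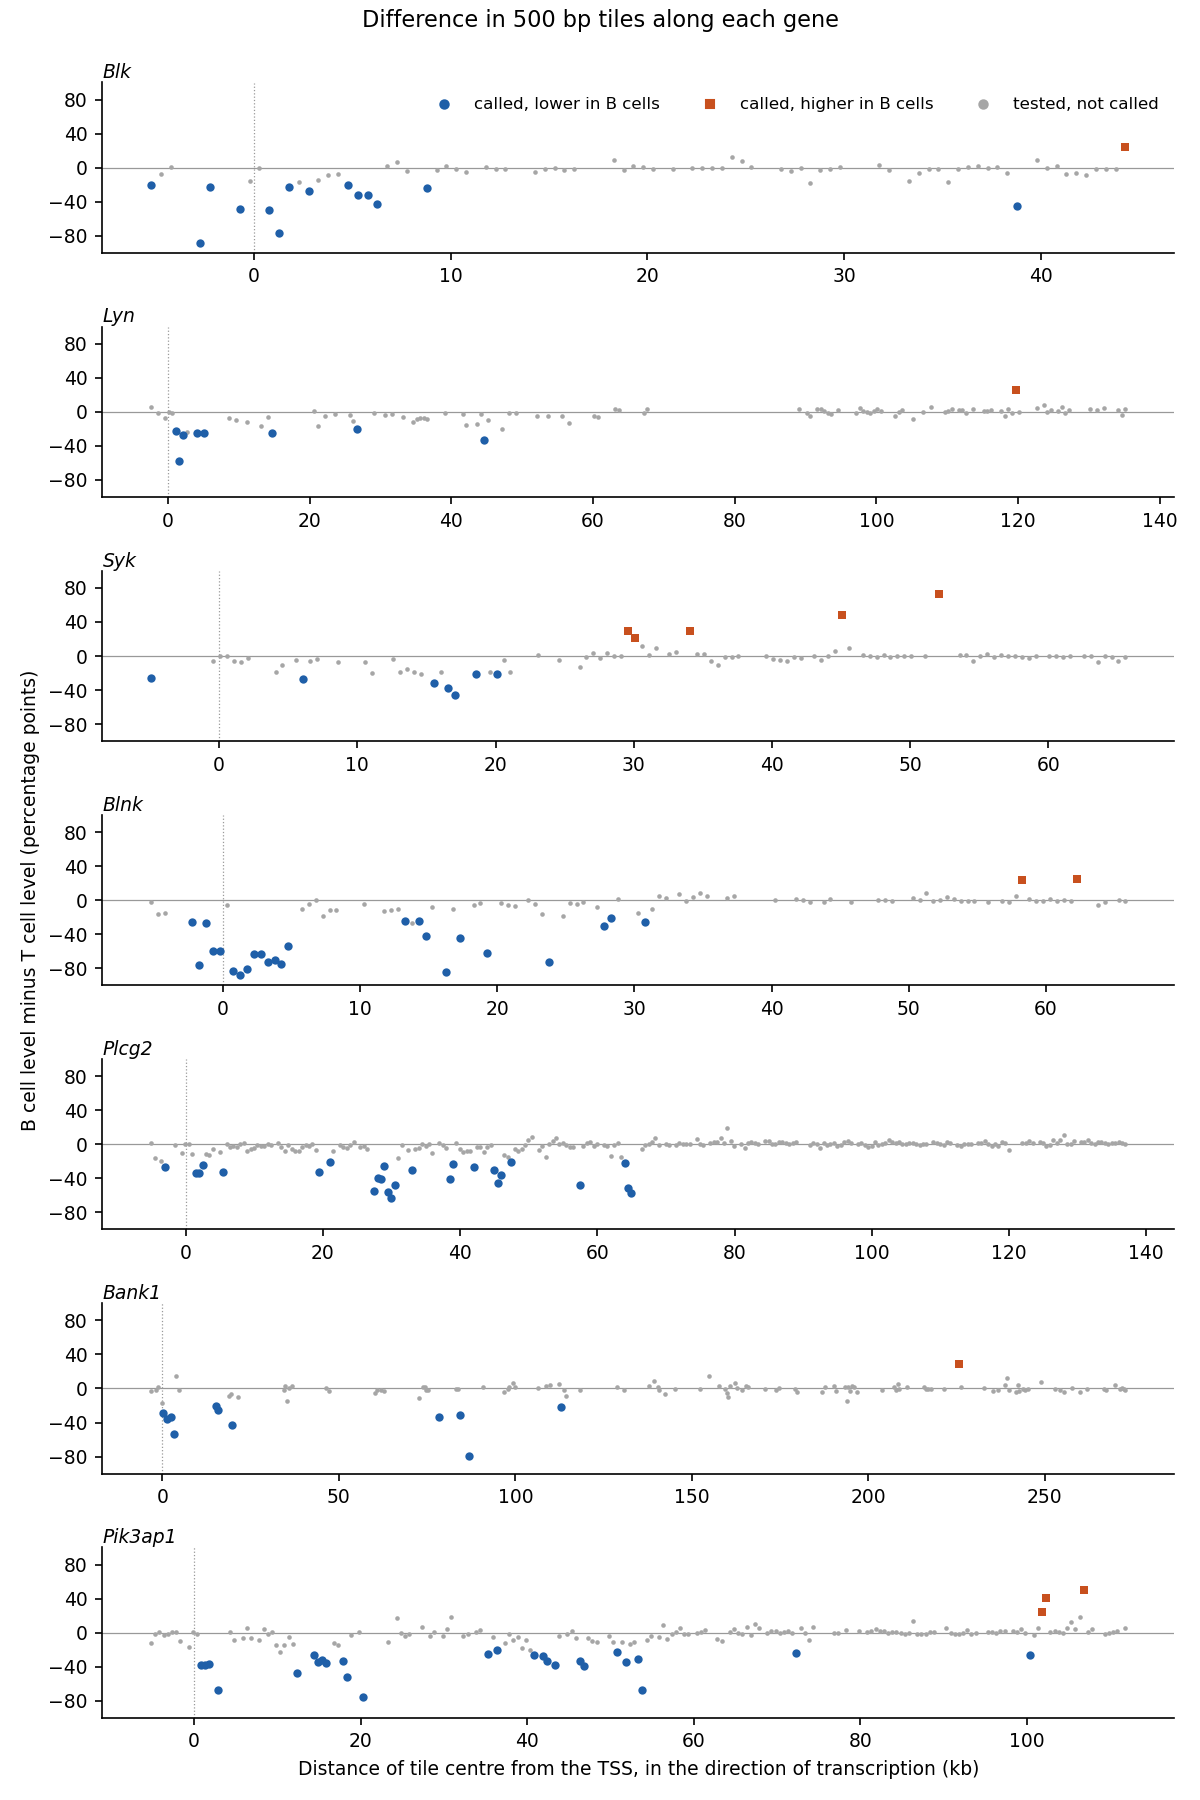
Difference in methylation between B and T cells (mean B cell level minus mean T cell level, percentage points, y axis) in each tested 500 bp tile against the distance of the tile centre from the TSS (kb, x axis) for the 7 genes, with called tiles in blue (lower in B cells) and orange (higher). Blue points gather near and downstream of the TSS, and 11 of 13 orange points lie past the midpoint of the gene.

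Over the 7 genes together, 945 tiles with at least 3 CpGs had enough calls to be tested, of 1242 with that many CpGs. The share called lower in B cells, 12.3%, and the share called higher, 1.38%, compare with 1.11% and 1.96% of the 2252942 tiles tested in the genome. The share of lower tiles was thus above that of the genome, and the share of higher tiles was below it. The genome includes tiles outside genes. In the 4931 protein-coding genes between 44.2 and 273 kb long, 9033 of 588890 tested tiles were lower and 18374 higher, counted once per gene. Whether these shares differ from those of the 7 genes was not tested. By gene, the share of lower tiles was 23.3% in Blnk, 17.5% in Blk, 14.3% in Pik3ap1, 10.4% in Plcg2, 8.73% in Bank1, 7.55% in Lyn and 7.07% in Syk. All 129 called tiles had the same direction in male and in female libraries. The tiles were called on both sexes together, which favours such agreement, so it is not a replication. Fewer tiles were called in the libraries of either sex alone, as given below.

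**Figure D3:**
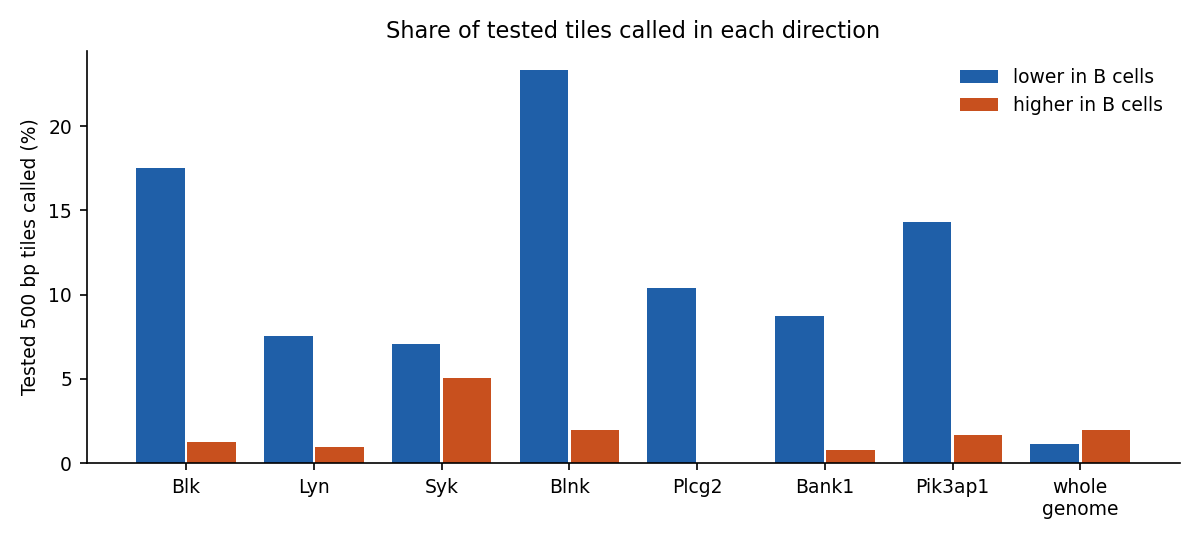
Percentage of tested 500 bp tiles (y axis) that were called lower (blue) or higher (orange) in B cells in each of the 7 genes and in the whole genome. The blue bars run from 7.07% (Syk) to 23.3% (Blnk) against 1.11% in the genome.

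A complete switch, with 20% or less in B cells and 80% or more in T cells, was seen in 11 of the 945 tiles (1.16%, against 0.0472% in the genome). Of these, 7 were in Blnk, 2 in Blk, 1 in Bank1 and 1 in Pik3ap1. The opposite switch, 80% or more in B cells and 20% or less in T cells, was found in 0 tiles of the 7 genes, against 0.112% in the genome. Among 945 tiles a count of 0 cannot be told apart from that share. The Syk tile at 51828 bp, with 94.0% and 21.1%, came nearest to it. Of the lower tiles, 72 of 116 were at 80% or more in T cells and 44 between 20% and 80%. In B cells, 34 of 116 were at 20% or less. Over all tested tiles of a gene, the median T cell level was between 93.5% (Pik3ap1) and 95.2% (Bank1). The median B cell level was between 88.1% (Blk) and 95.2% (Bank1).

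**Figure D4:**
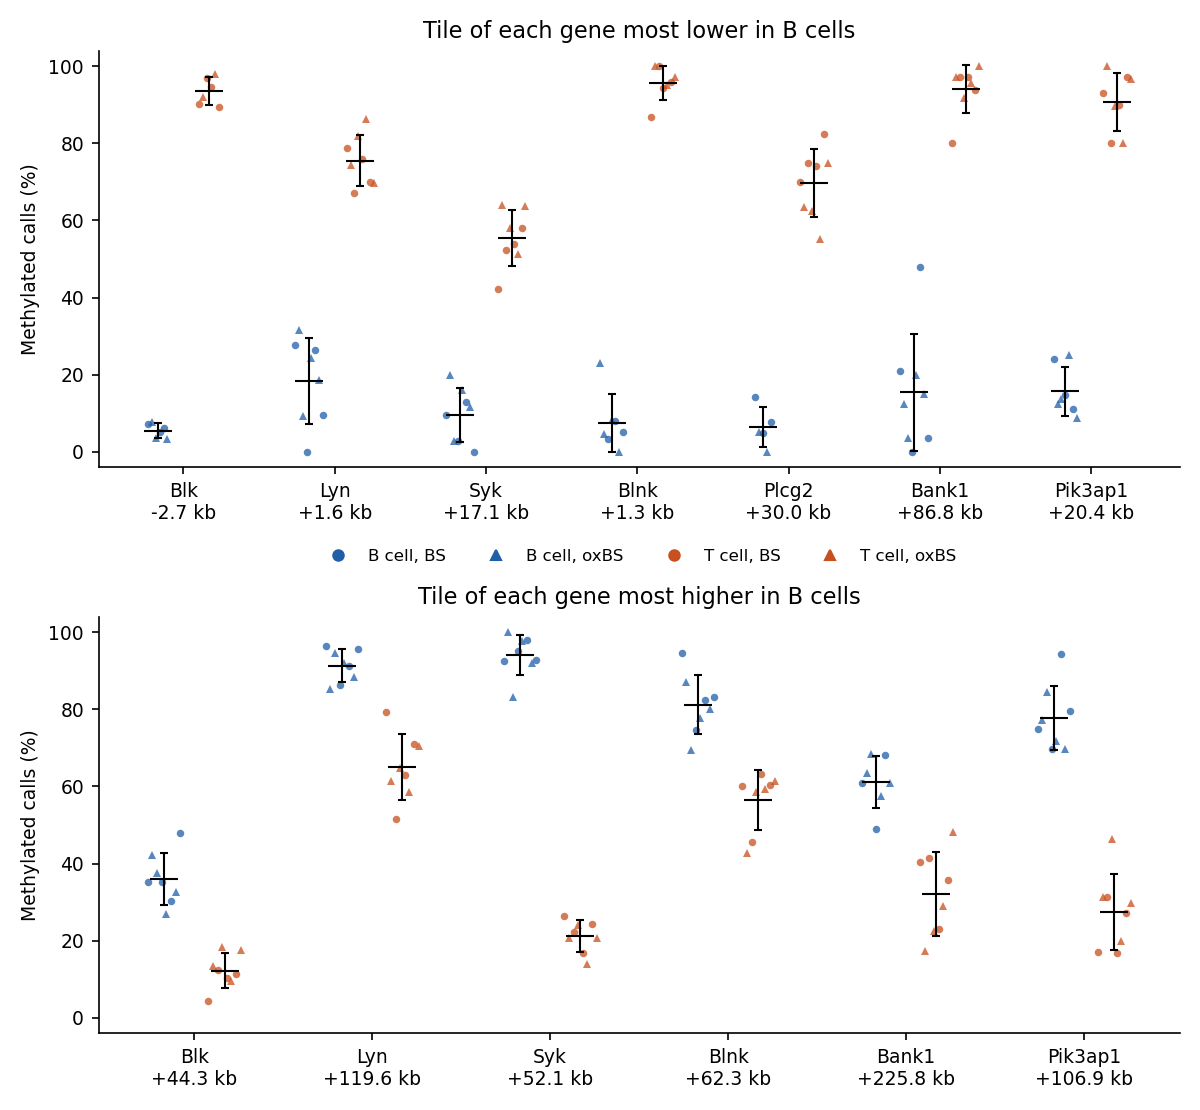
Methylation level (y axis, percentage of calls methylated) of each library with at least 20 calls in the tile of each gene with the largest difference in each direction, with the distance of the tile centre from the TSS under the gene name, B cells in blue, T cells in orange, and black marks for mean and SD. The cell types do not overlap in any of the 13 tiles shown, and no tile of Plcg2 was higher in B cells. The tiles shown were chosen for their large differences, which favours a lack of overlap. Among all called tiles of the genes, 107 of 116 lower and 12 of 13 higher tiles were without overlap. The limits for a call favour this too, and the share among called tiles of the genome was not computed.

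Lower tiles were unevenly placed along the genes. Within 5 kb of the TSS, 39 of 93 tested tiles (41.9%) were lower in B cells and 0 were higher, whereas within 5 kb of any protein-coding TSS 1.40% of tiles were lower in B cells and 2.65% higher. Beyond 5 kb, 77 of 852 tiles (9.04%) were lower, against 1.08% in the genome. Counted from the upstream end to the midpoint of each gene, that segment held 113 of the 116 lower tiles (97.4%) but 2 of the 13 higher tiles (15.4%), and 49.9% of all tested tiles. For the 4931 protein-coding genes between 44.2 and 273 kb long, the range of the 7 genes, the segment up to the midpoint held 53.2% of the lower tiles, 58.9% of the higher tiles and 51.4% of the tested tiles. Neighbouring tiles are not independent, and these shares are given as a description. By annotation, 98 of 742 intronic tiles, 10 of 36 upstream tiles, 4 of 122 tiles with a coding exon, 1 of 27 with an untranslated exon and 3 of 18 with an exon of a noncoding transcript were lower in B cells, and the shares by annotation in the genome were not computed.

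The 6 gene bodies other than that of Blnk differed by less than 10 points, all in the direction of lower methylation in B cells. Blk was at 77.8% in B cells against 83.4% in T cells (-5.64 points, adjusted p = 4.06e-04), and Lyn at 84.8% and 90.1% (-5.35 points, adjusted p = 0.00468). Pik3ap1 (-4.39 points), Plcg2 (-4.27 points) and Bank1 (-2.43 points) also had an adjusted p under 0.05, which 7067 of the 19972 bodies tested in the genome had. Syk did not (-2.58 points, adjusted p = 0.10). With the calls of neighbouring library numbers added, 4 sums remained in each cell type. The differences of Lyn, Bank1 and Pik3ap1 were then -5.36, -2.45 and -4.34 points, with adjusted p of 0.0943, 0.118 and 0.0607. The size of the differences did vary between the sets of B cell libraries. Without libraries 3, 4, 11 and 12 the differences of Lyn, Bank1, Pik3ap1, Blk and Syk were -2.04, -0.908, -2.26, -3.56 and -0.0132 points, and without libraries 1, 2, 9 and 10 they were -8.67, -3.96, -6.52, -7.71 and -5.16 points. The TSS differences in the same order were -43.5 and -47.6 points at Blnk, -28.9 and -35.3 points at Blk, and -15 and -20 points at Bank1, and all were called. Lower tiles numbered 79 without libraries 3, 4, 11 and 12 and 123 without libraries 1, 2, 9 and 10. Without libraries 3, 4, 11 and 12 they numbered 7 in Blk, 4 in Lyn and 2 in Syk, and without libraries 1, 2, 9 and 10 they numbered 13 in Syk.

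In T cells the 4 BS libraries stood wholly above the 4 oxBS libraries in 34.2% of all gene bodies, with a median difference of 1.27 points, and in 1 of the 7 genes (median 0.598 points), whereas in B cells they did so in 0.789% of all bodies and in 0 of the 7. The BS libraries stood wholly below in 0.291% of all bodies in T cells and in 1.37% in B cells, where the median difference was -0.0975 points. Levels by assay are given for the called TSS windows of Blnk, Blk and Bank1. At the Blnk TSS window B cells were at 11.4% by BS and 13.5% by oxBS, and T cells at 60.0% and 55.9%. At the Blk window B cells were at 21.4% and 24.4% and T cells at 56.1% and 54.0%. At the Bank1 window B cells were at 27.8% and 23.7% and T cells at 47.6% and 38.9%. No interaction of cell type with sex or with assay passed adjustment at the 7 TSS windows, the 7 bodies or the 945 tiles, where 25 tiles had an unadjusted p under 0.05 for sex and 38 for assay.

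Sequence motifs of factors known in lymphocytes were counted on both strands of the 500 bp tiles. They were EBF1 (CCCNNGGG), PU.1 (GAGGAAGT), ETS (GGAAGT, which is part of the PU.1 motif), E-box (CAGCTG), octamer (ATTTGCAT), a composite of ETS and IRF (GGAANNGAA) and RUNX (TGTGGT). EBF1 directs B cell development, and its motif was in 26.6% of all tiles of the genome that were lower in B cells, against 11% of all tested tiles. In the 7 genes it was in 18 of 116 lower tiles (15.5%) and in 15.7% of all 945 tested tiles. PU.1 was in 6.90% of the lower tiles of the 7 genes and 3.6% of their tested tiles, against 7.03% and 3.24% in the genome, and ETS in 38.8% and 29.7%, against 36.7% and 27.2%. The octamer was in 6.03% and 3.07%, against 4.85% and 3.32% in the genome. E-box was in 22.4% of the lower and 24.8% of the tested tiles of the 7 genes, whereas the genome had 32.3% and 21.9%. ETS-IRF (17.2% and 15.2%, against 18.6% and 14.8%) and RUNX (35.3% and 33.0%, against 36.2% and 32.7%) had shares closer to one another. The octamer and PU.1 shares of the lower tiles rest on 7 and 8 tiles. In the sequences printed above, the Blk upstream region held EBF1 and ETS matches, the Blnk sequence ETS, the first Syk sequence an E-box, and the second Syk, the Bank1 and the Plcg2 sequences no match. A match is a string of letters and not evidence of binding.

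Other genes of the receptor pathway were compared in the same way. Of 35 such genes, 9 TSS windows were lower in B cells, 4 were higher and 22 were not called, where 1.26% of all windows were called lower and 1.67% higher, with a median difference of 0.0166 points against 0.570 points over all genes tested. The receptor subunit gene Cd79a (11.7% against 76.2%) and Siglecg, an inhibitory lectin gene (2.84% against 50.8%), were among those lower in B cells. Those higher in B cells included Pik3cd, a catalytic subunit of phosphoinositide 3-kinase (26.5% against 6.15%), and the phosphatase gene Ptpn6 (48.0% against 28.7%), both genes that T cells also use. In bodies 4 of the 35 were lower in B cells, with Cd79a (-41.2 points), Cd79b (-40.5) and Dok3 (-24) first, and 3 were higher, Nfkbia (48.6 points), Ptprc (27.4) and Pik3cd (10.1), where 0.636% of all bodies were called lower and 2.61% higher. The 7 genes had a median difference of -4.82 points at the TSS and -4.39 points in the body, where the median of all bodies was 0.718 points.

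The T cell counterparts went the opposite way. Of 8 genes, among them Zap70, Lck, Fyn, Lcp2, Plcg1, Lat and Grap2, 5 TSS windows and 6 bodies were higher in B cells (1.67% and 2.61% of all) and 0 were lower, with medians of 18.8 and 20.8 points. Lcp2 and Plcg1 are described because they pair with members, outside the rule for naming. Zap70, the T cell relative of Syk, was at 88.0% ± 2.85 in B cells against 22.9% ± 5.02 in T cells at its TSS window (SD, n = 8 each), a difference of 65.1 points, where Syk was near 0 in both. Lck, the T cell Src-family kinase, was at 70.1% and 13% (57.2 points), against 22.9% and 55.0% at Blk. Lcp2, the relative of Blnk, was at 28.7% and 4.66% (24 points), against 12.5% and 58.0% at Blnk. Plcg1 and Plcg2 both had low TSS windows, and the body of Plcg1 was 14.9 points higher in B cells while that of Plcg2 was 4.27 points lower.

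**Figure D5:**
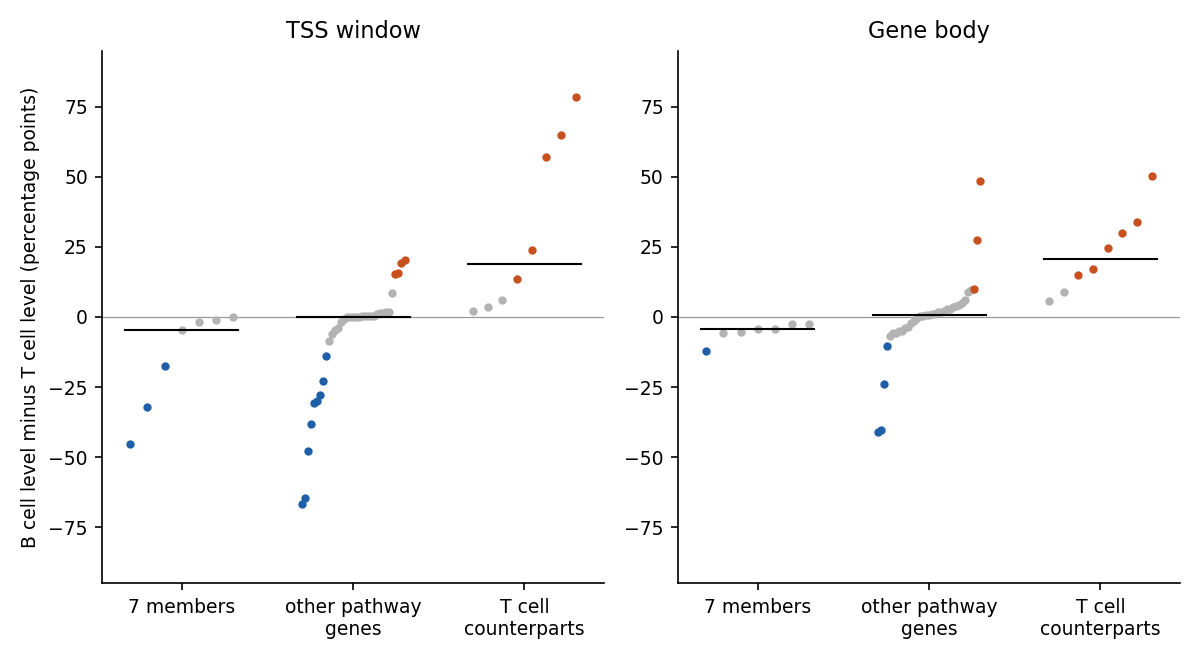
Difference between B and T cells (percentage points, y axis) in the TSS window (left) and the gene body (right) for the 7 genes, 35 other genes of the receptor pathway and 8 T cell counterparts, each point a gene in order of its difference, with called genes in blue (lower in B cells) or orange (higher) and a black line at the median. The medians at the TSS are -4.82, 0.0166 and 18.8 points.

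The TSS windows most like those of the 3 called genes were found among 20427 genes by the root mean square difference over the 16 library levels. For Blk they were H2-Aa (6.38 points), a gene of antigen presentation, Tlr9 (6.89 points), a receptor for DNA, and Haao (7.15 points). For Blnk they were Haao (7.85 points), Fam129c (8.60 points) and Gm5431 (9.29 points). Haao, on chromosome 17, thus appeared for both genes, at 18.9% in B cells against 52.2% in T cells. For Bank1 they were Sema4b (6.17 points), Hmgcll1 (6.32 points) and Myct1 (6.49 points).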

How the data were processed

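WGBS had been performed on 8 B cell and 8 T cell libraries, re-mapped from reads of an earlier project. The authors mapped reads to mm10 with Bismark 0.20.0 at default options and kept alignments with a mapping quality of at least 10. Trim Galore 0.6.0 and SAMtools 1.3.1 are named in the submitters' processing notes. The deposited files hold counts of unmethylated and methylated calls per CpG with both strands combined. Low coverage per CpG was handled here by adding calls over regions, and a library entered a region with at least 20 calls.

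Calls were added over TSS windows, gene bodies and 500 bp tiles of at least 3 CpGs, from 5 kb upstream of each TSS to the gene end. Regions needed 5 libraries in each cell type. Each region was fitted by quasi-binomial logistic regression on cell type, sex and assay with a dispersion of at least 1 (Python 3.11.15, NumPy 2.4.6, SciPy 1.17.1, Numba 0.67.0, Matplotlib 3.10.9), with p-values from an F test adjusted by the Benjamini-Hochberg method over all such regions on chromosomes 1 to 19 and X. The fit was tested on simulated libraries that were independent of one another, which does not cover libraries that share DNA. Exact permutation tests were two-sided. Alternatives included limma 3.58.1 in R 4.3.3, other limits, windows and tiles, subsets of libraries and leaving out each library.

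Groups, sexes, assays and library numbers were taken from the labels. The 7 genes, the gene lists and the motifs were chosen with earlier results of these data known. For each gene up to 3 called tiles in each direction, and for each list up to 3 genes per region and direction, were named by the size of the difference, along with the 3 genes most like each gene with a called TSS window. Sequences are from the mm10 genome. Some genes and sequences that these rules select are not reported here. Library totals and intervals limit precision by counting error only.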

Additional observations from a re-analysis of the deposited data

Results flagged for a closer look

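Of 92 groups of library levels in the TSS windows, gene bodies and named tiles that were examined for a single library far from the others, 7 held one. The nominal rate by chance is about 1 in 20. Whether that rate holds was not tested, since libraries may share DNA and percentages are bounded. In B cells, library 4 (male BS) was at 15.2% in the Blk tile 537 bp from the TSS, library 3 (male oxBS) at 83.3% in the Syk tile at 51828 bp, library 2 (male oxBS) at 23.1% in the Blnk tile at 1035 bp, and library 10 (female BS) at 47.8% in the Bank1 tile at 86566 bp. In T cells, library 5 (male BS) was the lowest in 3 tiles, at 87.5% in the Lyn tile at 1886 bp, 86.8% in the Blnk tile at 1035 bp and 80% in the Bank1 tile at 86566 bp. These 7 values come from 5 libraries.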

How the results depend on the processing

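No paired analysis was possible because the library numbers differ between the groups and are shared by none. The 3 lower TSS windows, the 1 lower body, 116 lower and 13 higher tiles were recomputed under each alternative that applies to that kind of region. Member TSS windows called lower numbered 1 in the oxBS, male or female libraries alone. Member bodies called lower numbered 3 with a limit of 5 points, 0 with 20 points and 0 without B cell libraries 3, 4, 11 and 12 (an alternative added after the data were seen). Lower tiles numbered 34 in BS, 38 in oxBS, 31 in male and 29 in female libraries alone, 72 with a limit of 30 points and 53 with at least 40 calls. Higher tiles numbered 1, 4, 1 and 3 in those subsets, 4 and 6 under those limits and 4 with 1000 bp tiles. Leaving out 1 library gave 98 to 115 lower and 11 to 14 higher tiles. Other pathway TSS windows numbered 5 lower and 0 higher in male libraries, 4 and 0 in female libraries, and 1 higher in BS libraries, 2 in oxBS libraries, 1 with a limit of 20 points and 1 within 500 bp of the TSS. Pathway bodies numbered 9 lower and 7 higher with 5 points and 5 higher in oxBS libraries. Counterpart TSS windows higher in B cells numbered 3 in female libraries. The uncalled Plcg2 TSS difference of 0.137 points changed sign in BS libraries (-0.488), in female libraries (-0.257), within 500 bp (-0.273), within 2 kb (-2.20), as a mean of CpG fractions (-0.701) and without B cell libraries 1, 2, 9 and 10 (-0.156), and ranged from -0.0274 to 0.338 with 1 library left out (-0.00281 without B cell library 2). That of Pik3ap1 was 0.0548 points within 500 bp. Subsets hold fewer libraries and stricter limits fewer tiles, and other causes were not tested. The Lyn tile at 1886 bp, at -26.8 points in the main fit, lost its call in several settings. It was at -26.3 points without T cell library 13 (adjusted p = 0.0525) or 15 (0.0530). Without B cell libraries 3, 4, 11 and 12 it was at -13.6 points (0.222), and with neighbouring library numbers added at -28.5 points (0.230).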

Other observations

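Btk, the X-linked kinase that activates phospholipase C gamma 2, was looked at after its values were seen. B cell libraries spread from 4.08% to 60.4% at its TSS window, while T cell libraries lay between 38.9% and 75.9%. Males showed a difference of -40.9 points and females one of -14.9 points, and whether the sexes differed was not tested.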
